A study of Mus musculus with 6 samples.

Results

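The genes described here are 10 that carry and shape the transcriptional answer to cyclic AMP: the DNA-binding factors Creb1, Atf1 and Crem, the coactivators Crebbp, Crtc1, Crtc2 and Crtc3, and the salt-inducible kinases Sik1, Sik2 and Sik3. They were taken by gene name from the reference gene rows, which hold 47643 identifiers, and each of the 10 names matched 1 identifier. All 10 passed the filter on low values used for testing (FPKM no lower than 1 in at least 3 of the 6 libraries), as did 12186 genes in all. FPKM is fragments per kilobase of transcript, scaled to the sequencing depth of the library.

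The cells were natural regulatory T cells (nTregs), a CD4 lineage that matures in the thymus and is defined by Foxp3. They came from the spleens of C57BL/6 mice with the Foxp3-DTR/EGFP genotype, whose Foxp3 gene expresses, besides Foxp3, the receptor for diphtheria toxin and the green fluorescent protein used for sorting. All cells were first activated for 2 days with antibodies to CD3 and CD28 and with IL-2, then given 100 nM of an EP4 agonist or the DMSO vehicle for 6 h and sorted on GFP. There are 3 libraries from agonist-treated cells and 3 from vehicle-treated cells. The sources used here do not name the agonist or give the age and sex of the mice. Nothing in the labels says whether the replicates come from separate animals or cultures, so the spread behind each p-value may be technical.

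EP4 is a receptor for prostaglandin E2 that couples to the stimulatory G protein and raises cyclic AMP. Cyclic AMP frees the catalytic subunits of protein kinase A, which phosphorylate CREB1 and ATF1 so that they recruit the coactivator CBP, the product of Crebbp. Protein kinase A also phosphorylates the salt-inducible kinases, which otherwise hold the CRTC coactivators in the cytoplasm, and CRTCs then enter the nucleus and join CREB on DNA. Crem and Sik1 are themselves known CREB targets: an internal promoter of Crem gives short repressors known as ICER, and SIK1 acts back on the CRTCs. On that textbook basis Crem and Sik1 are called the feedback genes here and the other 8 the constitutive genes.

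The libraries rest on 4.32 to 4.98 gigabases of aligned sequence with the agonist and 4.49 to 5.65 gigabases with vehicle, as the ratio of the deposited coverage to FPKM gives them. The markers chosen for nTregs, Foxp3, Il2ra, Ctla4, Ikzf2, Cd4 and Cd3e, were all present. Their summed FPKM was 1640 to 1810 in the agonist libraries and 1488 to 1588 in the vehicle libraries. The largest part was Il2ra, at 786 to 937 with the agonist and 787 to 923 with vehicle. Foxp3 had 124 to 154 with the agonist and 109 to 153 with vehicle. The groups did not overlap for Ctla4, at 314 to 414 with the agonist and 206 to 277 with vehicle, and overlapped for the others. No markers of other CD4 T cells were sought, so the sum does not measure purity. The markers sought for other cell types were low beside those chosen for nTregs. The 4 B cell markers summed to 3.69 to 6.19 FPKM with the agonist and 5.64 to 5.93 with vehicle. Most of that was Cd79b, at 3.03 to 4.54 with the agonist and 4.59 to 5.09 with vehicle, and Ms4a1 never exceeded 0.0611. The 2 CD8 T cell markers summed to 4.53 to 6.40 with the agonist and 3.89 to 5.43 with vehicle. Most of that was Cd8b1, at 4.03 to 6.20 with the agonist and 3.45 to 5.36 with vehicle. The 5 myeloid markers stayed at or below 0.503 FPKM in sum with the agonist and 0.845 with vehicle. The 4 dendritic cell markers stayed at or below 0.179 with the agonist and 0.156 with vehicle, with Siglech and Clec9a at 0 in every library, and the 2 NK cell markers at or below 0.166 with the agonist and 0.241 with vehicle. The 4 erythroid markers summed to 1.20 to 4.14 FPKM with the agonist and 2.84 to 8.03 with vehicle. The part of these other cells in the results was not tested. In bulk libraries such as these, fewer cells that express a gene and less RNA per cell cannot be told apart.

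After 6 h of agonist the mean FPKM of the feedback genes stood at 2.63 times its vehicle level for Crem and 2.40 times for Sik1, whereas the 8 constitutive genes had ratios from 0.858 for Crtc1 to 1.27 for Sik3. Sik1 rose (limma, adjusted p = 0.0329) and no member fell, so 1 of the 10 genes was called where 0.394% of all tested genes were called, 0.345% as higher and 0.0492% as lower. The 10 genes were chosen with earlier results of these data known, so counts of them are a description and no independent test. With the replicate number as a block, which compares libraries of the same number, limma called Crem, Sik1 and Sik3 higher and none lower, where 4.09% of tested genes were called higher, 6.41% lower and 10.5% in either direction. The agonist and vehicle libraries did not overlap for Crem and Sik1 and overlapped for the other 8. Over all tested genes 7.27% lay wholly higher with the agonist and 12.1% wholly lower, 19.4% in either direction. The median log2 fold change was 0.02 over the 10 genes, -0.06 over the 8 constitutive genes and -0.03 over all genes tested.

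**Figure D1:**
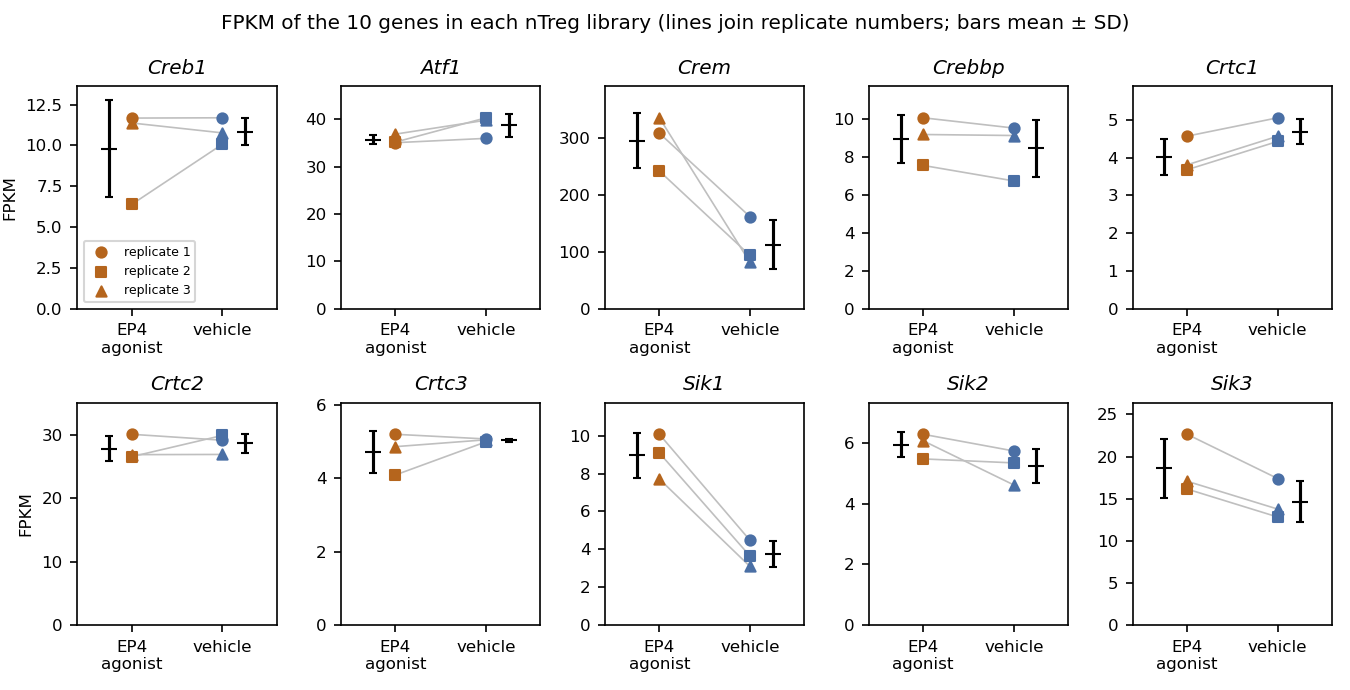
FPKM (vertical axes, each from 0) of each gene in the 3 EP4 agonist libraries (left of each panel) and the 3 vehicle libraries (right); grey lines join libraries of the same replicate number and bars give mean ± SD. For Crem and Sik1 all agonist points lie above all vehicle points, and for the other 8 genes the points of the groups overlap.

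Of the factors, Crem (ENSMUSG00000063889.16, chromosome 18, 3266048 to 3337748, minus strand, mm10) was by far the most abundant on the FPKM scale. It had 308, 242 and 335 FPKM in agonist replicates 1, 2 and 3, against 162, 93.4 and 81.3 FPKM in vehicle replicates 1, 2 and 3. Every agonist library was above every vehicle library, and vehicle replicate 1 was well above the other vehicle libraries. The means were 295 ± 48.2 FPKM with the agonist and 112 ± 43.2 FPKM with vehicle (SD, n = 3 each). The log2 fold change was 1.44 with a standard error of 0.26, and in the pairs numbered 1, 2 and 3 the log2 difference was 0.93, 1.36 and 2.03. Crem missed the threshold in limma's fit (adjusted p = 0.0858) and passed it with the replicate block (limma, adjusted p = 0.0300) and with coverage in place of FPKM (limma, adjusted p = 0.0198). Coverage called 2 of the 10 genes, Crem and Sik1, both higher, where it called 0.788% of all tested genes, 0.698% as higher and 0.0903% as lower. Crem passed in 4 of the 21 alternatives. Without vehicle replicate 1 its log2 fold change was 1.73 (limma, adjusted p = 0.00984). Leaving out any other library gave an adjusted p of 0.161 to 0.289 (limma), and no filter on low FPKM gave 0.304 (limma). With the block Crem missed the threshold when any pair was left out (limma, adjusted p = 0.0521 to 0.139).

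In the reference row of Crem, the height of the level depended on which deposited column was read, and its fold change much less so. Coverage, the mean read depth over the gene model, was put on the FPKM scale through the coverage that 1 FPKM most often stands for in each library. Read this way, Crem had 10.8, 11.5 and 11.3 FPKM in the agonist libraries and 5.61, 3.65 and 3.26 FPKM in the vehicle libraries. The deposited FPKM of Crem was thus 21.1 to 29.7 times the level from coverage, whereas the 2 agreed within 0.1% for Sik1 and the ratio was at most 3.34 for the other 8 genes. The ratio of agonist to vehicle means was 2.68 by coverage and 2.63 by FPKM. GENCODE M21 lists 39 transcripts for Crem, from 290 to 2931 bases long with 5895 bases of exon in all, and between 4 and 11 transcripts for each other member. The deposited tables give 1 value per gene, so ICER and the full-length forms of Crem are not told apart here, and the part of the transcript models in the high FPKM was not tested.

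Creb1 (ENSMUSG00000025958.14, chromosome 1, 64532645 to 64604548, plus strand), the founding factor of the family, had 11.7, 6.38 and 11.4 FPKM in agonist replicates 1, 2 and 3, against 11.7, 10.1 and 10.8 FPKM in the vehicle libraries. Agonist replicate 2 was the lowest of the 6 and the other agonist libraries lay within or near the vehicle range. The log2 fold change was -0.17 with a 95% interval of -0.66 to 0.31 (limma, adjusted p = 0.761), and it was 0.083 without agonist replicate 2. The low value of that library was less marked in the other readouts. By coverage it had 4.41 FPKM against 4.61 and 4.997 in the other agonist libraries, and the transcripts assembled at Creb1 from that library's own reads had 12.5 FPKM against 12.3 and 12.9.

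Atf1 (ENSMUSG00000023027.12, chromosome 15, 100227819 to 100261244, plus strand), the close relative of CREB1, differed little between libraries. It had 35.1, 35.2 and 36.9 FPKM with the agonist, against 36.0, 40.4 and 39.9 FPKM with vehicle. Its log2 fold change was -0.11 with a 95% interval of -0.29 to 0.07 (limma, adjusted p = 0.554), which leaves room for a level between 0.818 and 1.05 times that of vehicle on the log2(FPKM + 1) scale. Creb1 and Atf1 transcripts were therefore not detectably different between the groups at this number of libraries.

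Within each library, Crem was set against the other factors. The ratio of Crem to Creb1 in FPKM was 26.4, 37.9 and 29.5 in the agonist libraries, against 13.8, 9.28 and 7.55 in the vehicle libraries. By coverage the same ratio was 2.35, 2.60 and 2.26 with the agonist, against 1.17, 0.727 and 0.618 with vehicle. Crem held 86.5 ± 1.08% of the summed FPKM of Creb1, Atf1 and Crem in the agonist libraries and 67.9 ± 8.20% in the vehicle libraries (SD, n = 3 each). By coverage the shares were 39.5 ± 1.23% with the agonist and 18.3 ± 5.52% with vehicle. The groups did not overlap on either scale, but the scales disagree on whether Crem or Atf1 was the main transcript of the family in agonist-treated cells.

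**Figure D2:**
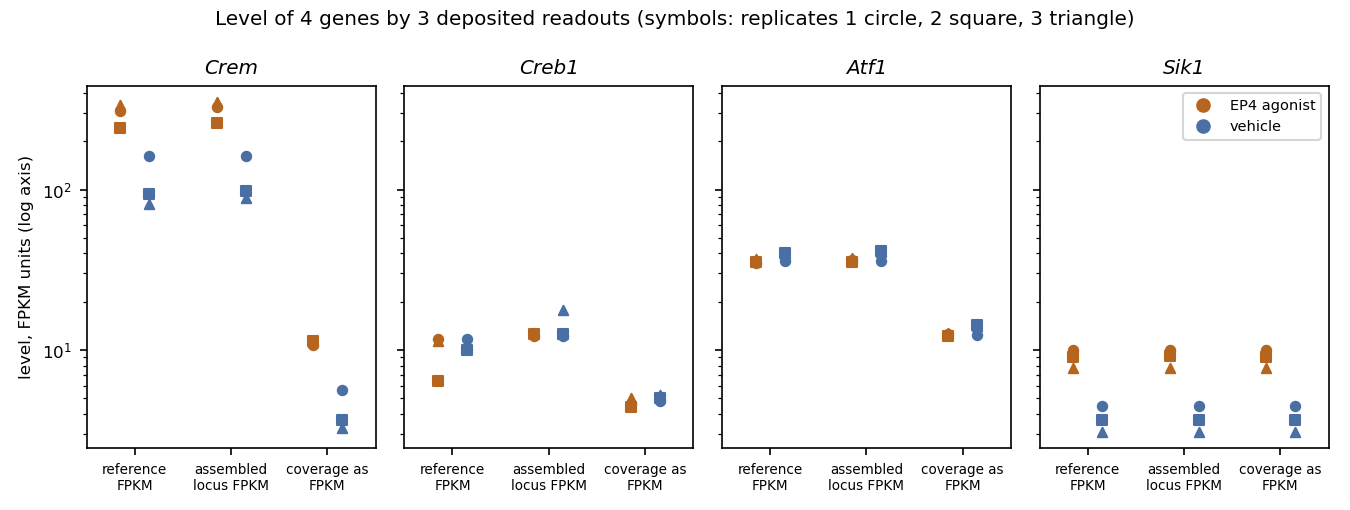
Level in FPKM units (log axis) of Crem, Creb1, Atf1 and Sik1 in each EP4 agonist (left of each pair) and vehicle (right) library, by the FPKM of the reference gene, the FPKM of the locus assembled from the same library's reads, and coverage put on the FPKM scale. Crem lies at 81.3 to 335 by reference FPKM and at 3.26 to 11.5 by coverage, while the Sik1 points keep the same height in all 3 readouts.

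Crebbp (ENSMUSG00000022521.10, chromosome 16, 4081328 to 4213997, minus strand) encodes CBP, the acetyltransferase that phosphorylated CREB recruits. It had 10.1, 7.55 and 9.18 FPKM in the agonist libraries, against 9.52, 6.73 and 9.13 FPKM in the vehicle libraries. Replicate 2 was the lowest of both groups, and the groups overlapped throughout. The log2 fold change was 0.07 with a 95% interval of -0.28 to 0.43 (limma, adjusted p = 0.870).

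The 3 CRTC genes encode the coactivators that carry the SIK signal to CREB, and none of them passed the test. Crtc2 (ENSMUSG00000027936.18, chromosome 3, 90254163 to 90264125, plus strand) was the most abundant, with 30.1, 26.6 and 26.9 FPKM in agonist libraries, against 29.2, 29.9 and 26.9 FPKM in vehicle libraries. Its interval was among the narrower ones, a log2 fold change of -0.04 with 95% limits of -0.23 and 0.15 (limma, adjusted p = 0.870). Crtc3 (ENSMUSG00000030527.15, chromosome 7, 80586627 to 80688877, minus strand) had 5.19, 4.09 and 4.86 FPKM with the agonist, against 5.07, 4.99 and 5.04 FPKM with vehicle. The SD of its vehicle libraries was 0.0397 FPKM, and agonist replicates 2 and 3 were below them. Crtc1 (ENSMUSG00000003575.13, chromosome 8, 70382355 to 70439579, minus strand) had 4.57, 3.68 and 3.81 FPKM with the agonist, against 5.06, 4.43 and 4.57 FPKM with vehicle. It was lower with the agonist in each of the 3 pairs, by log2 differences of -0.12, -0.21 and -0.21, and did not pass limma's test without the block (adjusted p = 0.496) or with it (limma, adjusted p = 0.155). Crtc2 made up 76.2 ± 1.05% of the summed CRTC FPKM with the agonist and 74.7 ± 1.24% with vehicle.

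Among the kinases, Sik1 (ENSMUSG00000024042.6, chromosome 17, 31844248 to 31855792, minus strand) was called higher. It had 10.1, 9.09 and 7.71 FPKM in agonist replicates 1, 2 and 3, against 4.48, 3.65 and 3.10 FPKM in vehicle replicates 1, 2 and 3. The groups did not overlap, and replicate 1 was the highest and replicate 3 the lowest of each. The means were 8.96 ± 1.19 FPKM with the agonist and 3.74 ± 0.696 FPKM with vehicle (SD, n = 3 each). The log2 fold change was 1.07 (SE 0.14; limma, adjusted p = 0.0329), and the pairs differed little, by 1.02, 1.12 and 1.09. Its direction was the same in all 21 alternatives, and it passed in 13 of them. Without a filter on low FPKM the adjusted p was 0.190, and leaving out any library other than vehicle replicate 1 gave 0.0935 to 0.150 (limma). With the block it passed (limma, adjusted p = 0.0142) and missed the threshold without pair 2 or pair 3 (limma, adjusted p = 0.0982 and 0.0739).

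Sik3 (ENSMUSG00000034135.14, chromosome 9, 46012820 to 46224194, plus strand) was the most abundant of the kinases. It had 22.6, 16.1 and 17.1 FPKM in the agonist libraries, against 17.4, 12.8 and 13.8 FPKM in the vehicle libraries. The groups overlapped because replicate 1 was the highest of both. Within pairs the agonist library was higher each time, by log2 differences of 0.36, 0.31 and 0.29. The log2 fold change of 0.32 did not pass limma's test (adjusted p = 0.415) and passed it with the replicate block (limma, adjusted p = 0.0262). The blocked call was lost when any pair was left out (limma, adjusted p = 0.0722 to 0.131).

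Sik2 (ENSMUSG00000037112.16, chromosome 9, 50892801 to 51009073, minus strand) had 6.30, 5.49 and 6.08 FPKM with the agonist, against 5.75, 5.35 and 4.63 FPKM with vehicle. The groups overlapped, and the log2 fold change of 0.16 had a 95% interval of -0.09 to 0.40 (limma, adjusted p = 0.543). Sik2 overlaps Ppp2r1b on the opposite strand by 1429 bases, and Ppp2r1b stood at 16.2 to 18.3 FPKM in all libraries. Sik1 held 26.8 ± 2.45% of the summed SIK FPKM with the agonist and 15.8 ± 1.21% with vehicle. By coverage the shares were 34.1 ± 2.72% with the agonist and 21.1 ± 1.84% with vehicle.

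**Figure D3:**
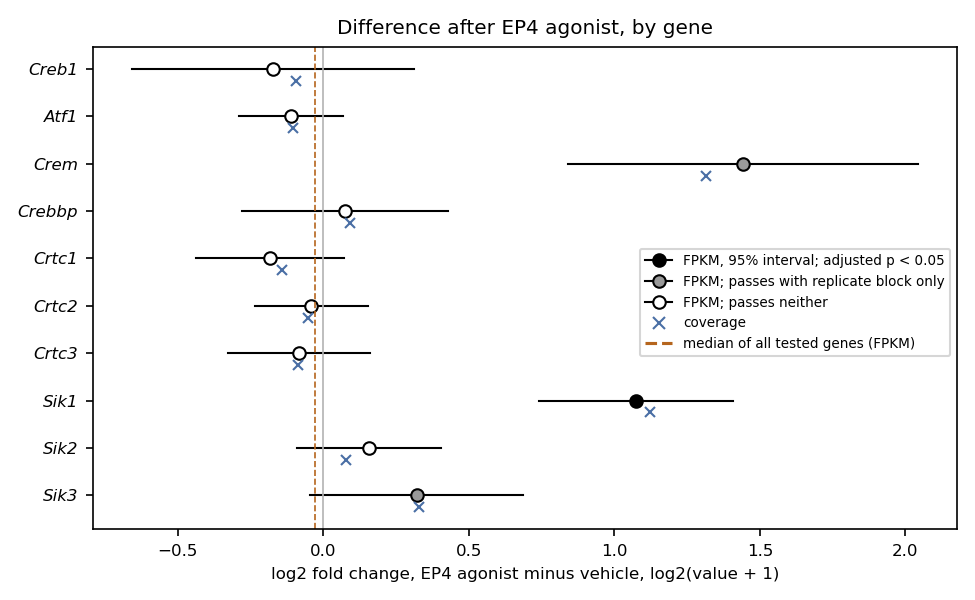
Log2 fold change of each gene, EP4 agonist minus vehicle (horizontal axis, log2(value + 1) scale), from FPKM with its 95% interval (circles) and from coverage (crosses); filled circles passed limma's test, grey ones passed with the replicate block only. Crem at 1.44 and Sik1 at 1.07 stand away from 0, and the other 8 genes lie between -0.18 and 0.32.

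CREB binds the palindrome TGACGTCA, or its 5-base core TGACG, and short windows of the promoters at hand that hold the core are shown. RefSeq promoters (GRCm38.p6, from 250 bases before to 50 after the annotated start) were at hand for 7 members, all of them constitutive. The feedback genes could therefore not be compared with them. TGACGTCA was in none of the 7 and is in 1.79% of the 32851 promoters of that length. The core, sought on both strands and counted also where it lies within the palindrome, was in those of Atf1, Sik2 and Sik3 and is in 20.8% of all promoters. The windows run 5′ to 3′ along the gene's strand, with each core in capitals, TGACG or its complement CGTCA. They lie at chr15:100227754-100227788 (plus strand) for Atf1, chr9:51009042-51009089 (minus strand) for Sik2, and chr9:46012672-46012723 and chr9:46012748-46012782 (plus strand) for Sik3. Counted from the annotated start, the first core of each window lies at -90 for Atf1, at -1 for Sik2, and at -133 and -57 for Sik3.
Atf1: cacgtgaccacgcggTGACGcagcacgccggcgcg
Sik2: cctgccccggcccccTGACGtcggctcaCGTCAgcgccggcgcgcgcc
Sik3 distal: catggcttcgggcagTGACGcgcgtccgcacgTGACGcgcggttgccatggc
Sik3 proximal: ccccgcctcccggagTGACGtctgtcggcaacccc
Of these, Sik3 passed limma's test with the block only, a call lost when any pair was left out, and Atf1 and Sik2 passed neither fit. Creb1, Crebbp, Crtc1 and Crtc3, whose promoters hold no core, also passed neither fit. A relation between core and call was not tested. A match is a description of the sequence and not a bound site.

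In vehicle-treated cells the order of mean FPKM was Crem 112, Atf1 38.7, Crtc2 28.7, Sik3 14.7, Creb1 10.8, Crebbp 8.46, Sik2 5.24, Crtc3 5.03, Crtc1 4.69 and Sik1 3.74. The vehicle libraries of neighbouring genes in that order did not overlap down to Crebbp and Sik2, whereas Sik2, Crtc3 and Crtc1 lay within each other's spread and the highest Sik1 library exceeded the lowest Crtc1 library. In agonist-treated cells Sik1 stood at 8.96 FPKM, between Creb1 at 9.82 and Crebbp at 8.93, and the order of the other 9 was kept. Sik1 lay at the 46.9th percentile of tested genes with the agonist and at the 23.4th with vehicle, and Crem at the 98.4th with the agonist and the 94.7th with vehicle. By coverage the vehicle order was led by Crtc2 at 17.0, Atf1 at 13.5 and Sik3 at 12.2, with Crem at 4.18.

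Each table also lists loci assembled from the reads of its own library, and each member had such a locus on its strand in all 6 libraries. At Crem these loci had 329, 260.5 and 349 FPKM in the agonist libraries, against 162, 97.7 and 88.5 FPKM in the vehicle libraries. Their coverage on the FPKM scale was 25.7, 42.5 and 11.4 with the agonist, against 5.56, 4.56 and 16.0 with vehicle. By that readout the groups overlapped. At Atf1 it was 36.1, 33.8 and 13.1 in the agonist libraries, where the FPKM of the loci was 36.2, 35.2 and 37.5. At Sik1 they had 10.1, 9.15 and 7.74 FPKM with the agonist, against 4.48, 3.65 and 3.10 FPKM with vehicle. At Sik3 the assembled loci averaged 19.2 ± 2.98 FPKM with the agonist and 15.4 ± 2.44 FPKM with vehicle. Crtc3 was split into more than 1 assembled locus on its strand in every library, so no level is given for it. The assembled loci rest on the same reads as the reference rows and are no independent measurement.

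The gene whose profile over the 6 libraries was nearest to that of Sik1 was another member of the wider CREB family, Creb3l2, which encodes a membrane-anchored factor of the endoplasmic reticulum. Nearness was measured as the root mean square distance of the log2(FPKM + 1) values, each centred on the gene's mean, and it was 0.06 for Creb3l2 against a median of 0.59 over all tested genes. The nearest genes were picked for small distances, so lying under the median is no test of a shared behaviour. Creb3l2 had 8.89, 7.48 and 6.75 FPKM in the agonist libraries, against 3.80, 3.38 and 2.84 FPKM in the vehicle libraries. The groups did not overlap, and it rose by a log2 fold change of 1.003 (SE 0.13; limma, adjusted p = 0.0329). The call was lost with no filter on low FPKM (limma, adjusted p = 0.179) and when any library other than vehicle replicate 1 was left out (limma, adjusted p = 0.0930 to 0.148). The next nearest were Gm37939, Lilr4b, Gm6225 and Kctd12, at distances of 0.08 to 0.10. Nearest to Crem were the ubiquitin ligase gene Pja1 at 0.17, the methionine sulfoxide reductase gene Msrb3 at 0.20, Tnfrsf9, which encodes 4-1BB, at 0.21, the G protein subunit gene Gnal at 0.22 and Cables1 at 0.23, against a median of 0.81.

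Gm6225 (ENSMUSG00000097746.1, chromosome 18, 3336416 to 3366863, plus strand) is the neighbour of Crem on the opposite strand and overlaps its 5′ end by 1333 bases. It had 2.11, 1.87 and 1.44 FPKM in the agonist libraries, against 0.840, 0.492 and 0.207 FPKM in the vehicle libraries. Gm6225 passed the filter on low FPKM only through the agonist libraries. The groups therefore could not overlap, and its p-values lean toward a difference and are no support for one. The log2 fold change of 0.91 did not pass limma's test (adjusted p = 0.124) and passed it with the block (limma, adjusted p = 0.0210). The blocked call was lost when any pair was left out (limma, adjusted p = 0.0557 to 0.108). The library kit keeps the strand, but the sources used here do not give the strand setting of the deposited values, so reads of Crem and Gm6225 within the overlap cannot be told apart. Cul2, the next gene on that side, had 12.4, 10.9 and 12.7 FPKM with the agonist, against 12.1, 10.8 and 10.6 FPKM with vehicle (limma, adjusted p = 0.690).

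Around the 10 genes, 7 lists of pathway genes were counted. Over all tested genes, 0.345% were called higher and 0.0492% lower without the block, and 4.09% higher and 6.41% lower with it. Upstream, in the list of receptors, adenylyl cyclases and protein kinase A subunits, 13 of 21 genes were tested. None was called without the block, where 1701 of all genes had an unadjusted p under 0.05. With the block 2 of the 13 were lower, against 6.41% of all tested genes (median log2 fold change -0.08). These were Ptger4, the gene of EP4 itself, with 19.6 ± 1.66 FPKM with the agonist and 30.2 ± 4.04 FPKM with vehicle (limma with the block, adjusted p = 0.0310), and the regulatory subunit gene Prkar2a, with 5.98 ± 1.19 FPKM with the agonist and 7.78 ± 1.44 FPKM with vehicle (limma with the block, adjusted p = 0.0345). The blocked call of Ptger4 was lost without pair 2 or pair 3 (limma, adjusted p = 0.122 and 0.141), and that of Prkar2a when any pair was left out (limma, adjusted p = 0.0841 to 0.157).

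The list of the SIK-activating kinase LKB1 (Stk11), its partners, the CRTC phosphatases and the YWHA adaptors that hold phosphorylated CRTCs had all 19 genes tested, 0 called without the block and 1 lower with it, a share near the 6.41% of all tested genes (median -0.10). That gene was Ywhag, with 30.8 ± 0.791 FPKM with the agonist and 36.3 ± 2.54 FPKM with vehicle (limma with the block, adjusted p = 0.0482), a call lost with quantile normalization (limma with the block, adjusted p = 0.0808) and when any pair was left out (limma, adjusted p = 0.0758 to 0.204). Of the other kinases that LKB1 activates, 5 of 11 were tested and 0 were called in either fit (median -0.0013). Class IIa histone deacetylases are a further substrate of SIKs and act on MEF2 factors, and of that list 5 of 8 genes were tested. None was called without the block, and with it the deacetylase gene Hdac7 was lower, with 41.4 ± 4.40 FPKM with the agonist and 58.8 ± 5.48 FPKM with vehicle, and Mef2d was higher, with 49.2 ± 12.0 FPKM with the agonist and 34.4 ± 7.75 FPKM with vehicle (limma with the block, adjusted p = 0.0356 and 0.0209). These are 1 of 5 lower and 1 of 5 higher, against 6.41% and 4.09% of all tested genes. The call of Hdac7 was lost with quantile normalization (limma with the block, adjusted p = 0.0530), and both calls were lost when any pair was left out (limma, adjusted p = 0.0739 to 0.128 for Hdac7 and 0.0584 to 0.102 for Mef2d).

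Of the other CREB and ATF factors and coactivators 16 of 21 were tested, and Creb3l2 was the only one called without the block. With the block Creb3l2 was higher and Carm1, an arginine methyltransferase that acts as a coactivator, was lower, with 13.3 ± 1.39 FPKM with the agonist and 17.4 ± 3.19 FPKM with vehicle (limma with the block, adjusted p = 0.0364). Each is 1 of 16 genes, a share near the 4.09% higher and 6.41% lower of all tested genes. The blocked call of Creb3l2 was lost without pair 2 or pair 3 (limma, adjusted p = 0.0982 and 0.0739), and that of Carm1 when any pair was left out (limma, adjusted p = 0.0552 to 0.158). The median log2 fold change of the list was 0.02. Of the other kinases that phosphorylate CREB 8 of 11 were tested, 0 were called without the block, and Camk4 was higher with it, with 15.5 ± 1.501 FPKM with the agonist and 10.1 ± 2.19 FPKM with vehicle (limma with the block, adjusted p = 0.0231). This is 1 of 8 genes, against 4.09% higher of all tested genes, and the call was lost without pair 2 or pair 3 (limma, adjusted p = 0.111 and 0.117).

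Known CREB target genes, a list that holds neither Crem nor Sik1, had a median log2 fold change of 0.44 over the 25 of 31 genes that were tested, where the median of all genes was -0.03. The list was chosen with earlier results of these data known, so its counts are a description and no independent test. Without the block 3 of the 25 rose, against 0.345% of all tested genes. With the replicate block 15 rose, against 4.09% of all tested genes, and none fell in either fit. Both counts depended on the libraries. The 3 became 5 without vehicle replicate 1, and 0 when any other single library was left out or with no filter on low FPKM. The 15 became 7, 0 and 0 without pairs 1, 2 and 3. Calls over all tested genes, in either direction, moved likewise. They were 133 without vehicle replicate 1, 0 to 5 when 1 other library was left out and 2 with no filter. With the block they were 241, 0 and 1 without pairs 1, 2 and 3. A count of 0 in those fits is thus not particular to this list. The 3 that rose without the block were Rgs2, a brake on G protein signalling, the MAP kinase phosphatase gene Dusp4 and the AP-1 factor gene Fosl2. Their log2 fold changes were 1.66, 1.10 and 1.91 (limma, adjusted p = 0.0154, 0.0165 and 0.0267). Those that followed by p were the phosphodiesterase gene Pde4d, the early response gene Ier2 and the insulin receptor substrate gene Irs2, at 1.003, 0.44 and 0.80 (limma with the block, adjusted p = 0.0210, 0.0208 and 0.0156). By coverage the log2 fold change of Pde4d was 0.13. Fos, Egr1 and Egr2 went the other way, at -0.12, -0.12 and -0.33, and passed neither fit. Groups did not overlap for 11 of the 25 genes, all higher with the agonist, where 7.27% of all tested genes lay wholly higher and 19.4% apart in either direction.

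**Figure D4:**
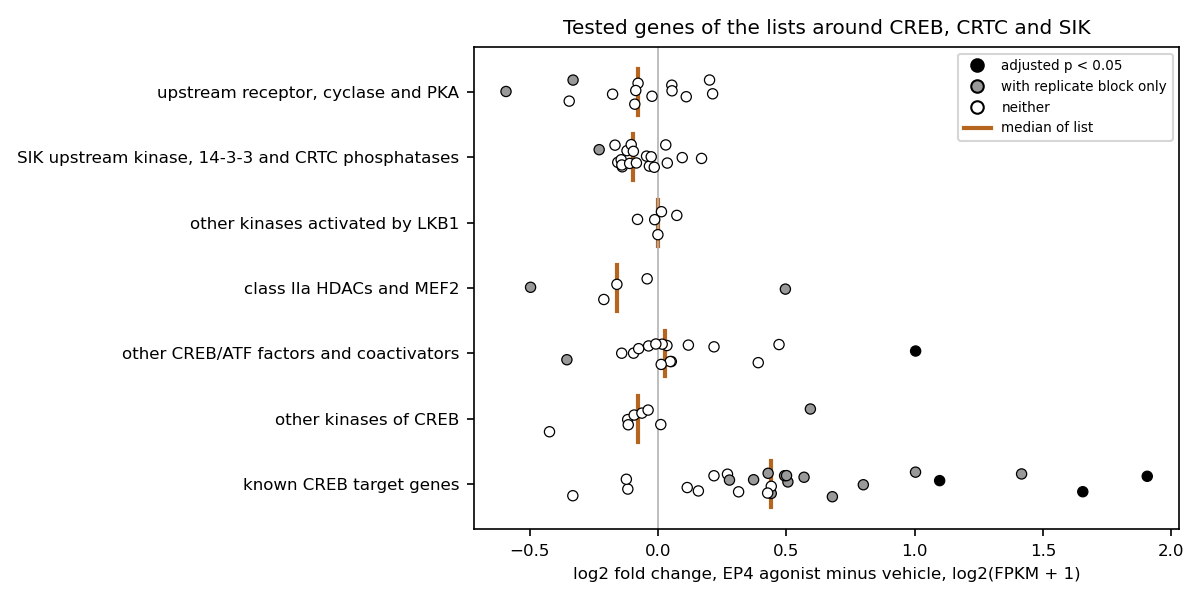
Log2 fold change, EP4 agonist minus vehicle (horizontal axis), of each tested gene of the 7 lists (rows); black points passed limma's test, grey points passed with the replicate block only, open points neither, and the bar is the list's median. Most known CREB target genes lie right of 0, with a median of 0.44, and the medians of the other lists lie between -0.16 and 0.02.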

How the data were processed

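RNA sequencing libraries (stranded poly(A) kit) of 3 agonist and 3 vehicle samples were grouped and numbered by title. Reads were trimmed with Trim Galore and aligned with HISAT2 to mm10, per the submitters' processing notes. The sources used here do not name the program or annotation release behind the abundances. The authors deposited, per the file headers, FPKM and coverage (a depth signal per base) for each gene and each assembled locus. The deposited TPM column sums to more than 1000000 and was not used. Rows of 1 identifier were summed. Fragment counts are not in the tables, so no counting interval is given.

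Differences were tested as log2(FPKM + 1), a scale that understates the change of genes with low FPKM, over 12186 genes with limma 3.58.1 (trend, robust variances; statmod 1.5.0; R 4.3.3), Benjamini-Hochberg adjustment and a threshold of 0.05, which "rose", "fell" and "changed" refer to. Tables and plots used Python 3.11.15, pandas 2.3.3, numpy 2.4.6 and matplotlib 3.10.9. Coverage was divided by its modal ratio to FPKM in each library, 4.32 to 5.65. Of the rows compared in a library, 53.0 to 54.2% lay within 0.1% of that ratio, and the rest departed further from it. The main assembled locus of a gene covers over 50% of its span on its strand.

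The replicate numbers occur in both groups. Deviations from group means correlated at 0.512, 0.404 and 0.321 for the pairs of the same number and at -0.353 to 0.00197 for the others. Deviations within a group sum to 0, so the values for the same number and for the others are tied to each other. Negative values for the others follow in part from this centring, and the 3 values for the same number are not independent evidence of pairing. All 3 values for the same number exceed 0.1, so libraries of the same number were treated as pairs in the blocked fit. That choice came from the data and not the labels. The main fit has no block and does not use the pairs. The blocked value is given where it changes a call.

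The members, lists and named genes (called genes of each list, at most 6 by smallest p, and the 5 nearest to Crem and Sik1) were chosen with earlier results of these data known. The alternatives were other pseudocounts, filters, scalings, variance models, coverage, the block, and each library or pair left out.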

Additional observations from a re-analysis of the deposited data

Results flagged for a closer look

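Beside Crem, the assembled loci on the opposite strand differed between the groups in extent. In 3 of 3 agonist libraries a locus starting at Gm6225 ran on through Cul2, against 0 of 3 vehicle libraries, where the genes were assembled apart. This signal lies in rows outside the main measurement. The joined loci had 17.4, 15.5 and 15.8 FPKM in the agonist libraries. In the vehicle libraries the locus at Gm6225 had 0.840, 0.492 and 0.207 FPKM and the locus at Cul2 had 13.0, 12.7 and 11.8 FPKM. The FPKM of a joined locus covers both genes and is not comparable with that of Gm6225 alone. All vehicle values at Gm6225 were under the filter value of 1 FPKM. The part of that low level in whether the genes were joined was not tested, and neither was the difference between the groups.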

How the results depend on the processing

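The number of members called higher was 1, and it was 2 with coverage in place of FPKM, 3 with the replicate block, 3 with the block and quantile normalization and 0 with no filter on low FPKM. Leaving out 1 library gave 0 to 2, and with the block leaving out 1 pair gave 0 to 1. No alternative called a member lower, whereas 6 genes of all tested were called lower. Of all genes, 42 were called higher and 6 lower. With coverage the counts were 85 and 11, with the block 498 and 781, with the block and quantile normalization 519 and 478, and with no filter, where 26424 genes were tested, 2 and 0 (2253 at an unadjusted p under 0.05). Median ratio scaling called 66 higher and upper quartile scaling 68. Leaving out 1 library gave 0 to 107 higher and 0 to 26 lower, and with the block leaving out 1 pair gave 0 to 151 and 0 to 90. Among these fits, only those without vehicle replicate 1 or without pair 1 called more than 5 genes. A call lost in the others is therefore not particular to that gene. Crem and Sik1 were higher in all 21 alternatives, with log2 fold changes of 1.15 to 1.73 and 0.68 to 1.25. Signs turned only for constitutive genes near 0. Leaving out 1 library gave -0.31 to 0.083 for Creb1 and -0.064 to 0.18 for Crebbp. Creb1 was at 0.083 without agonist replicate 2 and at 0.035 with the block and without pair 2, Crebbp at -0.0070 without agonist replicate 1 and at -0.064 without vehicle replicate 2, and Crtc2 at 0.0055 with quantile normalization, with or without the block, and at 0.021 with the block and without pair 2. The agonist minus vehicle difference in the ratio of Crem to Creb1 was 1.57 by coverage and 21.0 by FPKM, in the ratio of Sik1 to Sik2 and Sik3 together 0.251 by coverage and 0.180 by FPKM, and in the Sik1 share 12.99 by coverage and 11.03 by FPKM in percentage points. The cause was not tested. No scaling moved the median of all genes by more than 0.1 on the log2 scale.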
